A study of Mus musculus with 4 samples.

Results

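The immediate early genes examined here are 10 transcription factor genes, Fos, Fosb, Jun, Junb, Egr1, Egr2, Egr3, Ier2, Klf4 and Atf3, chosen by symbol from the gene tables of an RNA-seq study of the fetal mouse cortex. Of the 10, 9 were listed in both deposited tables, among 20385 genes listed in both, and 7 had enough counts to be tested among 16371 tested genes. Cerebral cortex of C57BL/6 embryos at embryonic day 16 was compared between 2 Cd93 KO libraries (KO 5 and KO 6) and 2 wild type libraries (WT 1 and WT 4), and no other allele or treatment is given in the labels. The series' design text speaks of triplicates, while the labels analysed here give 2 libraries per genotype. Cd93 encodes a transmembrane lectin receptor known mainly from endothelial cells, and the study's title links it to astrocyte formation. Each library was made from total RNA of dissected cortex. Which part of Cd93 was deleted, and whether each library came from its own embryo, is not given, so p-values measure only the spread between these libraries, which may be technical.

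Immediate early genes are transcribed within minutes of a stimulus without new protein synthesis. Growth factors, calcium entry and synaptic activity reach them through MAP kinases, the serum response factor with its ternary complex partners, and CREB. Their products, among them the FOS and JUN proteins that pair on AP-1 sites and the EGR zinc finger proteins, then act on later genes, and in neurons they are widely used as a sign of recent activity.

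The libraries held 16318317 to 17586157 counts, so that 1 count was worth 0.0569 to 0.0613 CPM (a gene's counts scaled to a fixed library size). Cd93 had 111 and 99 counts in KO 5 and KO 6, against 680 and 409 in WT 1 and WT 4, an order that follows the genotype labels. Markers of cortical projection neurons, 7 of 7 tested, summed to 3507 to 3735 CPM in KO and 3070 to 3656 CPM in WT, with no marker at 0 in any library. WT 1 stood apart in its summed markers of several other cell types. Its summed markers were 448 CPM for meningeal fibroblasts, 548 CPM for the ganglionic eminence and striatum, 263 CPM for endothelial cells and 73.03 CPM for microglia and macrophages. In the other libraries the sums ran from 28.9 to 68.0, 156 to 251, 156 to 166 and 33.8 to 39.2 CPM for the same lists.

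Promoter windows from RefSeq (GRCm38.p6), 250 bases before to 50 after a start site, were matched by symbol for 7 of the 10 genes, leaving Egr1, Egr3 and Ier2. The windows of 3 members on which the results turn are shown 5′ to 3′ on the strand of the gene. They are Klf4, which had the largest fitted difference between the genotypes, Fos, the best known gene of the class, and Jun, the most abundant. Capitals mark matches, on either strand, to the core of the cAMP response element (TGACG) or to the EGR site (GCGNGGGCG).
Klf4, chr4:55532426-55532725, minus strand: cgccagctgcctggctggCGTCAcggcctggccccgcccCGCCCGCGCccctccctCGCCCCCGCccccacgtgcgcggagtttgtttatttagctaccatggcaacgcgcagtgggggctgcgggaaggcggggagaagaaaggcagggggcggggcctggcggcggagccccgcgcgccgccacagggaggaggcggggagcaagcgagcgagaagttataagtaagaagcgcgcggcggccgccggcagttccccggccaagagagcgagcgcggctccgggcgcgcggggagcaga
Fos, chr12:85473640-85473939, plus strand: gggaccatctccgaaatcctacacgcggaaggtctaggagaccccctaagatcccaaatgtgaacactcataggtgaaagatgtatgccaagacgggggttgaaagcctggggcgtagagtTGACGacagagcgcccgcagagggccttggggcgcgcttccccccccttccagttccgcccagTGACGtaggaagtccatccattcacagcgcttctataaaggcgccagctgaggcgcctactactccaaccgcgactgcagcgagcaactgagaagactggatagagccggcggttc
Jun, chr4:95052173-95052472, minus strand: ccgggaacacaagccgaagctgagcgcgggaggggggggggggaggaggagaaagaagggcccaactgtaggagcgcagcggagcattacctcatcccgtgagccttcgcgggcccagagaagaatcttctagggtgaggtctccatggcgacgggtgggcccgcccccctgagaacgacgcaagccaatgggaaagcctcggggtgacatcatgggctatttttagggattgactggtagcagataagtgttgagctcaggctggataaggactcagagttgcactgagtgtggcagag
The TGACG core was found in the windows of 6 of the 7 genes, Fos, Fosb, Junb, Egr2, Klf4 and Atf3, and in 20.8% of all 32851 windows. For each motif, a member counted if any of its windows held a match, and Egr2 has several windows. The shares of all windows are per window, so the 2 measures differ. In Fos it began at position -66 and again at -129 from the start site, and in Klf4 it began at -232. The full palindrome TGACGTCA, which contains that core on both strands, was in 0 of the 7 and in 1.79% of all windows. The EGR site was in 2 of the 7, at -211 and -194 in Klf4 and at -50 in Fosb, and in 5.55% of all windows. The CArG box bound by serum response factor was found in 1 of the 7, Egr2, and in 1.63% of all windows. The AP-1 site TGANTCA was found in 0 of the 7 and in 7.81% of all windows. In Jun none of these motifs was found as written, and near variants, such as the tgacatca in its window, were not searched for. A match is a description of letters in this window, and binding was not measured.

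No immediate early gene passed the test of KO against WT cortex, and Klf4 had less than 1 count in KO for every 2 in WT in both deposited tables. In the quasi-likelihood test of edgeR, with p-values adjusted over all tested genes after Benjamini and Hochberg, 0 of the 7 tested members passed an adjusted p of 0.05, where 0.0122% of all tested genes did (2 of 16371). DESeq2 and limma-voom also called 0 of the 7. Cd93 itself, at a log2 fold change of -2.32 (SE 0.25), missed this threshold in edgeR at an adjusted p of 0.211. It also missed in limma-voom and passed in DESeq2. A gene that did not pass in edgeR is therefore not shown to be unchanged. At an unadjusted edgeR p under 0.05 stood 1 of the 7, Klf4, where 1.94% of all tested genes did. In Klf4 and Egr3, 2 of the 7, both KO libraries lay below both WT libraries, where 11.9% of all tested genes did so, and in 0 of the 7 did both KO libraries lie above both WT libraries, where 11.5% did. The median log2 fold change of the 7 was -0.25, against -0.003 over all tested genes, with 3 above and 4 below 0.

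**Figure D1:**
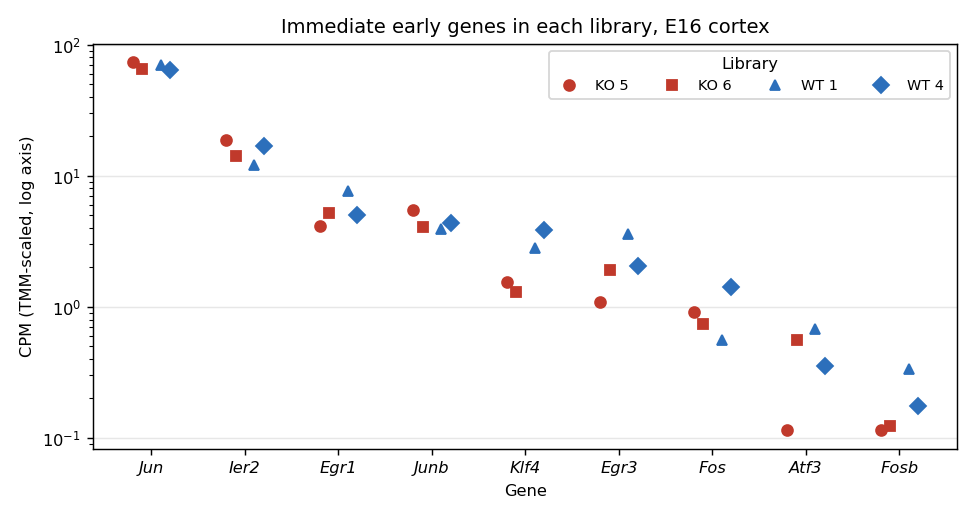
TMM-scaled CPM on a log axis of the 9 members listed in both tables, with 1 point per library, KO 5 and KO 6 left of WT 1 and WT 4 for each gene. Jun stands highest at 64.1 to 73.07 CPM in the 4 libraries, and both KO points lie below both WT points in Klf4, Egr3 and the scarce Fosb.

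Per kilobase of exon, which allows levels to be compared between genes, the members spanned a wide range. Jun averaged 21.3 CPM per kb over the 4 libraries and Ier2 10.1, followed by Junb at 1.94, Egr1 at 1.23, Klf4 at 0.776, Egr3 at 0.491, Fos at 0.385, Atf3 at 0.197 and Fosb at 0.0301. Jun lay above 84.5% and Ier2 above 67.9% of tested genes on this scale, whereas Fos lay above 8.53% of them. The ranges of neighbours over the 4 libraries did not overlap between Jun and Ier2, Ier2 and Junb, or Junb and Egr1. From Egr1 downwards, each neighbouring pair in this order overlapped.

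Fos and Fosb, whose proteins pair with JUN proteins on AP-1 sites, were scarce. Fos (ENSMUSG00000021250, GRCm38 chromosome 12, 85473890 to 85477273, plus strand) had 16 and 12 counts in KO 5 and KO 6, against 10 and 24 in WT 1 and WT 4. The WT libraries enclosed both KO libraries, and the level was 0.827 ± 0.123 CPM in KO and 0.986 ± 0.599 CPM in WT (SD, n = 2 each). The log2 fold change was -0.25 (SE 0.55, 95% interval -1.56 to 1.07, edgeR adjusted p 0.9999), with ratios of 0.33 for KO 6 over WT 1 and -0.57 for KO 5 over WT 4 on the log2 scale. Without WT 4 it was 0.56, so its direction rested on that library. Fosb (ENSMUSG00000003545, chromosome 7, 19302696 to 19310051, minus strand) had 2 and 2 counts in KO 5 and KO 6, against 6 and 3 in WT 1 and WT 4, and was not tested. Its counts summed over libraries and set to equal depth gave a KO to WT ratio of 0.456, with a 95% exact interval of 0.103 to 1.63 that includes 1. Such intervals cover counting error only.

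Jun and Junb, the AP-1 partners of FOS proteins, had overlapping levels in the genotypes. Jun (ENSMUSG00000052684, chromosome 4, 95049034 to 95052222, minus strand, a single exon) had 1280 and 1049 counts in KO 5 and KO 6, against 1246 and 1091 in WT 1 and WT 4. The genotypes interleaved, at 68.9 ± 5.95 CPM in KO and 67.1 ± 4.25 CPM in WT (SD, n = 2 each). The log2 fold change, 0.04 with an SE of 0.11 and an adjusted p of 0.9999 in edgeR, had a 95% interval of -0.23 to 0.31, the narrowest of the 7, which corresponds to a level in KO between 0.852 and 1.24 times that in WT. Junb (ENSMUSG00000052837, chromosome 8, 84974484 to 84978718, minus strand) had 96 and 66 counts in KO 5 and KO 6, against 70 and 74 in WT 1 and WT 4. The KO libraries enclosed the WT libraries, at 4.77 ± 0.999 CPM in KO and 4.14 ± 0.289 CPM in WT, a log2 fold change of 0.21 (SE 0.28, with an interval of -0.47 to 0.88 and an adjusted p of 0.9999 in edgeR). Exons of genes on the opposite strand overlap 7.28% of the exon bases of Jun (the antisense gene Junos) and 7.52% of those of Junb (Prdx2). Whether counting used strand is not given in the sources used here, and reads of these partner genes cannot be told apart.

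Atf3, a bZIP factor that responds to cellular stress, was close to the limit of detection. Atf3 (ENSMUSG00000026628, chromosome 1, 191170296 to 191218039, minus strand) had 2 and 9 counts in KO 5 and KO 6, against 12 and 6 in WT 1 and WT 4, so the genotypes overlapped. It did not pass the filter on low counts. The KO to WT ratio of its summed counts, set to equal depth, was 0.627 (95% exact interval 0.267 to 1.401).

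Among the EGR zinc finger genes, which are induced by MAP kinase signalling and by neuronal activity, Egr3 was the one whose genotypes did not overlap. Egr3 (ENSMUSG00000033730, chromosome 14, 70077203 to 70082614, plus strand) had 19 and 31 counts in KO 5 and KO 6, against 64 and 35 in WT 1 and WT 4. Both KO libraries were below both WT libraries, KO 6 only just below WT 4, with 1.911 CPM in KO 6 and 2.056 CPM in WT 4. The level was 1.498 ± 0.584 CPM in KO and 2.83 ± 1.09 CPM in WT (SD, n = 2 each), 1.89-fold lower in KO. The log2 fold change was -0.92 (SE 0.45, 95% interval -1.99 to 0.15) and missed the threshold in edgeR at an adjusted p of 0.9999, and the log2 ratios in the tables were -0.87 for KO 6 over WT 1 and -0.85 for KO 5 over WT 4. It was -0.46 without WT 1 and -0.56 without KO 5, and -1.37 without KO 6 and -1.26 without WT 4.

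Egr1, the most abundant EGR gene here, leaned the same way and overlapped. Egr1 (ENSMUSG00000038418, chromosome 18, 34859823 to 34864984, plus strand) had 73 and 84 counts in KO 5 and KO 6, against 135 and 86 in WT 1 and WT 4. In CPM, KO 6 at 5.18 lay slightly above WT 4 at 5.05, and WT 1 at 7.596 was the highest library. The level was 4.67 ± 0.714 CPM in KO and 6.32 ± 1.799 CPM in WT (SD, n = 2 each). Its log2 fold change, -0.44 with an SE of 0.30 and an interval of -1.16 to 0.29, missed the threshold in edgeR at an adjusted p of 0.9999, and it was -0.11 without WT 1. Egr2 (ENSMUSG00000037868, chromosome 10, 67535475 to 67542188, plus strand), known from hindbrain patterning and myelination, had 5 counts in KO 6 and 3 in WT 1. Its values come from that table alone, with a ratio of 1.796 and an exact interval of 0.350 to 11.6, and it entered no test.

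Egr1 and Egr3 were highest in WT 1, lowest in KO 5, and close together in KO 6 and WT 4. Summed markers of several other cell types moved with them, and those of further cell types did not. Summed markers of the ganglionic eminence and striatum, which lie below the cortex, were 156 and 245 CPM in KO 5 and KO 6, against 548 and 251 CPM in WT 1 and WT 4. The meningeal fibroblast sums were 28.9 and 42.65 CPM in KO 5 and KO 6, against 448 and 68.0 CPM in WT 1 and WT 4. Those of microglia and macrophages were 33.8 and 35.1 CPM in KO 5 and KO 6, against 73.03 and 39.2 CPM in WT 1 and WT 4. These 3 lists have the library order of Egr3, from KO 5 through KO 6 and WT 4 to WT 1. Pericyte sums, at 137 and 173 CPM in KO 5 and KO 6, against 240.1 and 147 CPM in WT 1 and WT 4, have the order of Egr1. The remaining marker lists have neither order. Endothelial sums were 166 and 156 CPM in KO 5 and KO 6, against 263 and 162 CPM in WT 1 and WT 4. Cortical progenitor sums were 489 and 357 CPM in KO, against 379 and 408 CPM in WT, in the same library order. Erythroid sums were 766 and 1468 CPM in KO, against 1065 and 1009 CPM in WT. All 7 ganglionic eminence, 7 meningeal, 7 microglial and 6 pericyte markers were tested, and 0 passed in edgeR. At an unadjusted edgeR p under 0.05 stood 6 ganglionic eminence, 6 meningeal, 2 microglial and 0 pericyte markers. Of all tested genes, 1.94% did so. The median log2 fold changes of these lists were -1.39, -2.92, -0.49 and -0.33 in the same order. No marker of these lists was at 0 in any library. Their part in the levels of Egr1 and Egr3 was not tested.

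Klf4, a zinc finger factor known from pluripotent cells, epithelia and endothelium, had the largest fitted difference of the 7. Klf4 (ENSMUSG00000003032, chromosome 4, 55527143 to 55532466, minus strand) had 27 and 21 counts in KO 5 and KO 6, against 50 and 65 in WT 1 and WT 4. All KO values lay below all WT values by more than the distance between the libraries of either genotype, at 1.54 and 1.29 CPM in KO 5 and KO 6, against 2.81 and 3.82 CPM in WT 1 and WT 4. The means were 1.42 ± 0.175 CPM in KO and 3.32 ± 0.711 CPM in WT (SD, n = 2 each), 2.34-fold lower in KO. The log2 fold change was -1.22 (SE 0.34, 95% interval -2.04 to -0.40), the gene ranked 43 by p among 16371, and it missed the threshold in edgeR at an adjusted p of 0.9999. It was -1.05 for KO 6 over WT 1 and -1.25 for KO 5 over WT 4 on the log2 scale. Over the 9 alternatives the adjusted p of Klf4 ran from 0.636 to 1.

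The authors marked Klf4 as lower in KO in both of their deposited tables, with adjusted p-values of 0.007507 in the table of KO 6 and WT 1 and 0.000696 in that of KO 5 and WT 4. Each of these compares 1 library with 1 library and carries no spread between replicates. In the authors' deposited tables, 45 of 20385 genes (0.221%) were marked lower in both and 5 (0.0245%) higher in both, and Klf4 was the 1 member among them. The mark took more than an authors' adjusted p under 0.05. Egr1 and Egr3 were under it in the table of KO 6 and WT 1 without the mark. So was Jun, higher in KO, in that of KO 5 and WT 4. Of the 25-base words in Klf4 transcripts, 3.08% also occur in transcripts of other genes, with Gm48640 sharing the most. A small part of the counts of Klf4 is therefore uncertain. For the other members outside Jun and Junb this share was 0% to 1.39%.

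Summed markers of some other cell types, but not of all, separated the genotypes as Klf4 did. The sums of meningeal, microglial and ganglionic eminence markers given above put KO 5 and KO 6 below WT 1 and WT 4, as Klf4 did. Marker by marker, this held for 5 of 7 meningeal, 3 of 7 microglial and 6 of 7 ganglionic eminence markers. It held for 1 of 8 endothelial and 2 of 6 pericyte markers, and for 11.9% of all tested genes. Endothelial markers, 8 tested and 0 passing, had a median log2 fold change of -0.42. They summed to 166 and 156 CPM in KO 5 and KO 6, against 263 and 162 CPM in WT 1 and WT 4. The genotypes overlapped in these sums, with KO 5 above WT 4, and in the pericyte sums, with KO 6 above WT 4. The 5 lists, pericytes included, were highest in WT 1, whereas Klf4 was highest in WT 4. The log2 fold change of Klf4 was -1.42 without WT 1 and -0.98 without WT 4. The part of these cell types in the level of Klf4 was not tested. In bulk tissue, fewer cells of a type and less RNA per cell cannot be told apart. Klf2, the endothelial relative of Klf4, named after its values were seen, was at 2.80 and 1.85 CPM in KO 5 and KO 6, against 2.701 and 2.59 CPM in WT 1 and WT 4, and its genotypes overlapped.

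**Figure D2:**
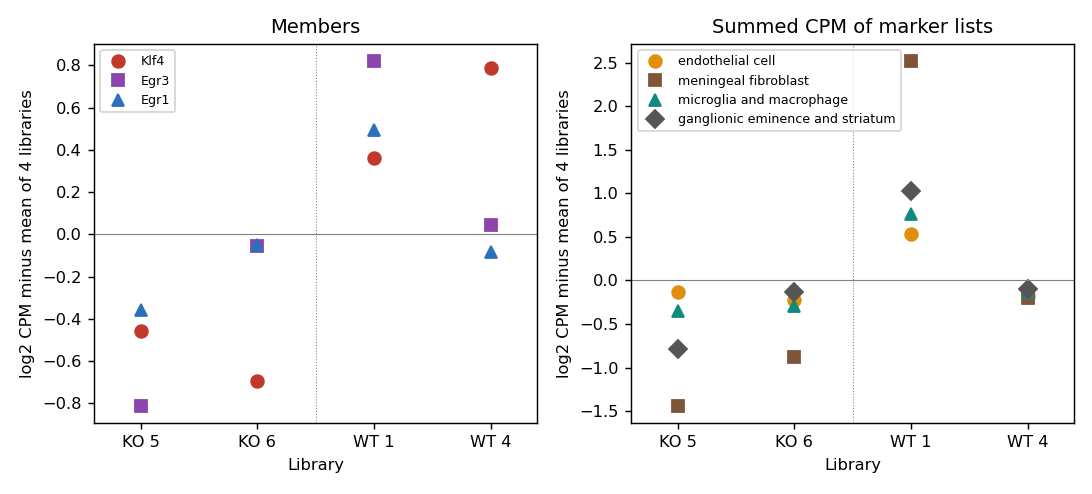
Left, log2 CPM of Klf4, Egr3 and Egr1 minus each gene's mean over the 4 libraries, and right, the same for the summed CPM of 4 marker lists, with KO 5 and KO 6 left of WT 1 and WT 4 on the library axis. All 4 marker lists and both EGR genes peak in WT 1, while Klf4 peaks in WT 4.

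Ier2, an intronless gene of a short nuclear regulator and the second most abundant member, had interleaved levels in the genotypes. Ier2 (ENSMUSG00000053560, chromosome 8, 84661331 to 84662852, minus strand) had 328 and 230 counts in KO 5 and KO 6, against 214 and 285 in WT 1 and WT 4. KO 5 was highest and WT 1 lowest, and the means were 16.4 ± 3.22 CPM in KO and 14.4 ± 3.32 CPM in WT (SD, n = 2 each). The log2 fold change was 0.19 (SE 0.23, interval -0.35 to 0.74, edgeR adjusted p 0.9999), and it was -0.02 both without WT 1 and without KO 5.

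**Figure D3:**
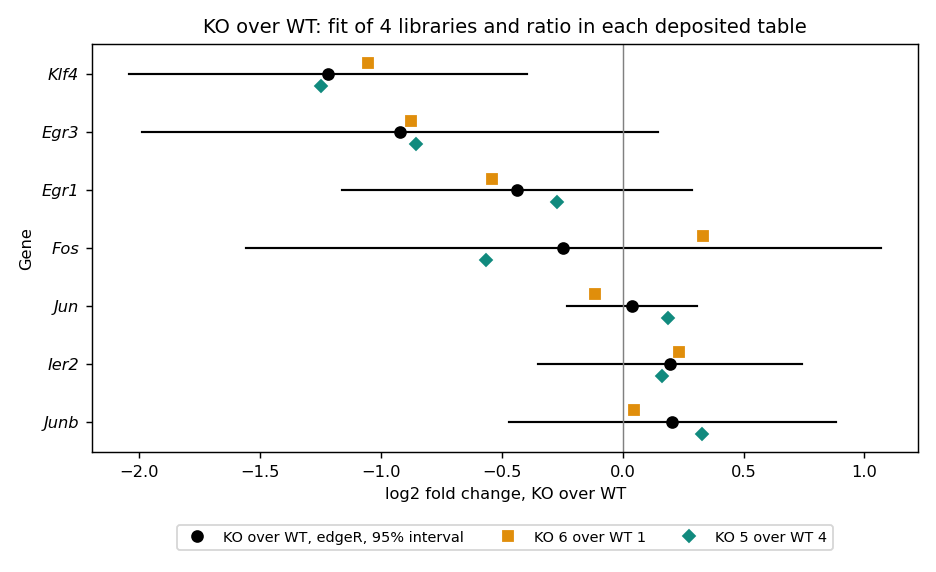
Log2 fold change of KO over WT on the x axis for the 7 tested members, with the edgeR estimate and its 95% interval in black, the ratio of KO 6 over WT 1 as squares and of KO 5 over WT 4 as diamonds. The interval of Klf4, -2.04 to -0.40, is the only 1 of the 7 that leaves out 0, and the 2 table ratios have opposite signs in Fos and Jun.

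Other immediate early transcription factors showed no common direction. Of 16 on the list, 15 were listed in both tables and tested, and 0 passed. Of these, 7 were above and 8 below 0, and the median log2 fold change was -0.05. Both KO libraries lay below both WT libraries in 0 of the 15, and above them in 2, Nr4a3 and Fosl1. Over all tested genes these shares were 11.9% and 11.5%. Egr4 was listed in 1 table, with 2 counts in KO 5 and 1 in WT 4. Nr4a3, an orphan nuclear receptor gene, had 1312 and 1301 counts in KO 5 and KO 6, against 838 and 1268 in WT 1 and WT 4, so that WT 1 alone was low. Its log2 fold change of 0.35, with an SE of 0.21, missed the threshold in edgeR at an adjusted p of 0.9999. It was 0.06 without WT 1, and 0.72 without WT 4, where edgeR called it at an adjusted p of 0.0187. Npas4, a transcription factor gene induced by calcium entry in neurons, had 43 and 64 counts in KO 5 and KO 6, against 130 and 51 in WT 1 and WT 4, the library order of Egr1. Its log2 fold change of -0.69 (SE 0.48) was 0.09 without WT 1. Fosl1 and Fosl2, further FOS relatives, were at 0.38 (SE 0.27) and 0.18 (SE 0.15) on the same scale, and Fosl2 was at 0.02 without WT 1 and 0.37 without WT 4.

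Immediate early effectors and feedback genes also lay around 0. Of 25, 24 were tested, 0 passed, 12 were above and 12 below 0, and the median was -0.002. Both KO libraries lay below both WT libraries in 3, Ier3, Errfi1 and Zfp36, and above them in 1, Sik1. The shares over all tested genes were 11.9% and 11.5%. Ptgs2 was not analysed here. Ier3, a gene of a small stress and survival regulator, had 23 and 17 counts in KO 5 and KO 6, against 39 and 39 in WT 1 and WT 4, without overlap. It was at 1.18 ± 0.188 CPM in KO and 2.24 ± 0.0684 CPM in WT (n = 2 each), and its log2 fold change, -0.92 with an SE of 0.35, missed the threshold in edgeR at an adjusted p of 0.9999. Errfi1, a feedback inhibitor of EGF receptors, had a log2 fold change of -0.32 (SE 0.16), Zfp36, which promotes decay of AU-rich mRNAs, -0.26 (SE 0.22), and Sik1, a salt-inducible kinase, 0.26 (SE 0.13), which was 0.13 without WT 1.

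Genes upstream of the class gave no call. Of 21 genes of MAP kinases, serum response factor and its partners, CREB and MEF2, 21 were tested and 0 passed. Of these, 9 were above and 12 below 0, and the median was -0.02. Both KO libraries lay below both WT libraries in 5, among them Camk4, Crem, Mkl2 and Creb1, and above them in 1. The shares over all tested genes were 11.9% and 11.5%. Camk4, a calcium-dependent kinase that activates CREB, was at 27.4 and 31.9 CPM in KO 5 and KO 6, against 40.6 and 38.2 CPM in WT 1 and WT 4. Its genotypes did not overlap, and its log2 fold change, -0.41 with an SE of 0.13, missed the threshold in edgeR at an adjusted p of 0.9999. Crem, a CREB relative with repressor forms, had -0.33 (SE 0.21), or -0.18 without WT 1, Mkl2, a serum response factor coactivator, -0.18 (SE 0.12), and Creb1 itself -0.15 (SE 0.10). Of the AP-1 partners and the co-repressors of EGR proteins, 8 of 10 were tested, 0 passed, and the median was -0.03. Nab1, an EGR co-repressor, was at -0.09 (SE 0.14), Atf7 at 0.09 (SE 0.115) and Maf at -0.13 (SE 0.17).

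Genes that follow the class in time, and 2 stress programmes, gave no call either. Of 8 late activity-response genes 8 were tested, 0 passed, and the median was 0.13. Both KO libraries lay above both WT libraries in 1 of them, Pcsk1, and below them in 0. The shares over all tested genes were 11.5% and 11.9%. Inhba, the gene of the activin beta-A subunit, was at 0.37 (SE 0.25), Pcsk1, a prohormone convertase gene, at 0.32 (SE 0.35), Vgf, a neuropeptide precursor gene, at 0.27 (SE 0.30), and Penk, the proenkephalin gene, at -0.39 (SE 0.37). Without WT 1, Penk was at -0.04, Vgf at 0.05 and Inhba at 0.21. Of 10 heat shock genes 8 were tested, 0 passed, and the median was -0.01. Hspa1a and Hspa1b were dropped by the filter on low counts and so were not assessed. Hsph1, Hspe1 and Dnaja1 lay between -0.03 and 0.06. Hspb1, a small heat shock protein gene, had 34 and 14 counts in KO 5 and KO 6, against 28 and 163 in WT 1 and WT 4, so that WT 4 alone was high. Its log2 fold change of -1.98 (SE 0.83) was -0.15 without WT 4 and -2.75 without WT 1, where edgeR called it at an adjusted p of 0.000243. Of 8 genes of the ATF4 stress response 6 were tested, 0 passed, and the median was 0.004. Trib3 and Nupr1 were dropped by the same filter. Both KO libraries lay below both WT libraries in 1 of the 6, Chac1, and above them in 0. Chac1, a glutathione-degrading enzyme gene, was at -0.51 (SE 0.31) without overlap, Vldlr at 0.14 (SE 0.13), or 0.04 without WT 1, Atf4 at 0.03 (SE 0.11) and Asns at -0.04 (SE 0.20).

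**Figure D4:**
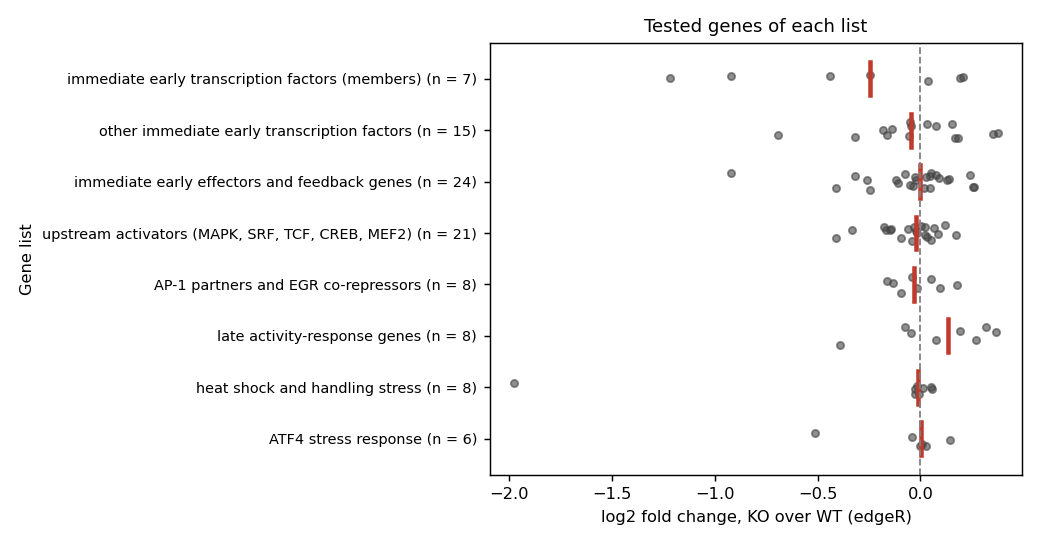
Log2 fold change of KO over WT on the x axis for each tested gene of the members and of 7 further lists, with 1 grey point per gene, a red bar at the list's median and a dashed line at the median of all tested genes. The medians run from -0.25 for the members to 0.13 for the late activity-response genes, and the farthest point is Hspb1 at -1.98.

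The mean profile of the 7 tested members over the 4 libraries was -0.12 and -0.18 in KO 5 and KO 6, against 0.10 and 0.20 in WT 1 and WT 4, as log2 CPM centred on each gene's mean. Among 11750 other genes of at least 5 CPM, the nearest by Euclidean distance over these 4 libraries included Cacnb2 at 0.0351, Sult2b1 at 0.0508, A230077H06Rik at 0.0512 and Slc10a7 at 0.0638. Cacnb2 encodes a subunit of voltage-gated calcium channels. The members did not share this mean profile among themselves. Klf4 ran from -0.69 in KO 6 to 0.79 in WT 4, Egr3 from -0.81 in KO 5 to 0.82 in WT 1, and Ier2 from 0.30 in KO 5 to -0.33 in WT 1.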

How the data were processed

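Libraries were made with an Illumina TruSeq RNA kit from total RNA, per the labels' protocols. Bowtie2 (2.2.3), mm9, HTSeq (0.6.0) and TopHat2 (2.0.12) appear, without roles, in the submitters' processing notes, but the deposited positions are those of GRCm38 for all 10 members. The deposited tables hold whole counts per Ensembl gene made by the authors. They also hold the authors' CPM, and the authors' fold change (a ratio), its log2 value and p-values, each for 1 KO library against 1 WT library. The CPM printed here were computed from the deposited counts and scaled by TMM factors of 0.994 to 1.01.

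Counts of genes in both tables passed filterByExpr and were tested with edgeR 4.0.16 (quasi-likelihood, two-sided, adjusted p 0.05) in R 4.3.3. DESeq2 1.42.0, limma 3.58.1 (voom), the table as a block, DESeq2 size factors, no filter and leaving out each library were alternatives. The fit was also run on simulated counts with 200 changed genes and no library that stands apart from the others. That run does not measure how many changes the test misses in these data. For the ratio of 2 libraries, a prior count of 2 was added before taking log2 CPM. An exact permutation of 2 against 2 libraries cannot give a two-sided p under 0.333. Exon lengths and overlaps are from GENCODE M21 (GRCm38). Precision of scarce genes is given by exact 95% counting intervals.

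The members and the 7 further gene lists were chosen with earlier results of these data known. Named genes are the 10 members, Cd93, up to 4 genes of smallest p per list, and the 5 nearest profiles. Genes in 1 table only entered no test. Some results under this rule are not reported here.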

Additional observations from a re-analysis of the deposited data

How the results depend on the processing

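The KO and WT libraries share no replicate number, so they were paired only by deposited table, in the fit with the table as a block, which gave the members no call. The call of 0 among the tested members held in all 9 alternatives, and the count of all genes called was 2 with DESeq2 size factors, no filter or limma-voom, 8 with DESeq2, 29 with the table as a block, and 5 to 312 when 1 library was left out. Leaving out WT 4 gave 312, WT 1 gave 44, KO 6 gave 8 and KO 5 gave 5. The median log2 fold change of the 7 members, -0.25, was -0.10 with limma-voom and -0.287 to -0.0198 when 1 library was left out. Klf4, Egr3 and Egr1 stayed below 0 throughout, at -1.42 to -0.98, -1.37 to -0.46 and -0.70 to -0.11. Directions that turned on leaving out 1 library were those of Fos (-0.76 to 0.56), Jun (-0.0522 to 0.13), Junb (-0.0248 to 0.41) and Ier2 (-0.0234 to 0.46). Among the other named genes they were Npas4 (-1.19 to 0.0922), Atf7 (-0.00251 to 0.21), Maf (-0.38 to 0.0822), Nab1 (-0.24 to 0.0761), Inhba (-0.0237 to 0.68), Vgf (-0.0276 to 0.53), Hsph1 (-0.02398 to 0.13), Hspe1 (-0.30 to 0.34), Dnaja1 (-0.14 to 0.0824), Atf4 (-0.0446 to 0.10) and Asns (-0.35 to 0.22). Same in direction but wide were Nr4a3 (0.06 to 0.72), Hspb1 (-2.75 to -0.15), Penk (-0.67 to -0.04), Fosl1 (0.20 to 0.54), Fosl2 (0.02 to 0.37), Vldlr (0.03 to 0.26), Pcsk1 (0.09 to 0.53), Sik1 (0.13 to 0.41), Crem (-0.46 to -0.18) and Creb1 (-0.22 to -0.07). The cause was not tested. Cd93, at an adjusted p of 0.211 with all 4 libraries, passed with DESeq2, with the block, without WT 1 and without WT 4. Depth limits Fos, Fosb, Egr2 and Atf3, with 8 to 62 counts in all.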
